A study of Danio rerio with 4 samples.

Results

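Solute carriers are membrane proteins that move small molecules, such as amino acids, sugars, ions, vitamins and metals, across the plasma membrane or the membranes of mitochondria, the Golgi apparatus, lysosomes and vesicles. The genes described here are the rows of a zebrafish expression table whose name starts with slc and a family number and whose larger value over 2 sorted cell fractions was at least 10 FPKM (mapped fragments scaled by transcript length and library size). Of 31716 rows in the table, 342 had such a name. The 6 genes slc4a1a, slc25a37, slc40a1, slc11a2, slc24a5 and slc45a2 were set aside, 262 rows stayed under the level threshold, and 74 remained. They belong to 26 numbered families. One of them, slc7a6os, is named for lying opposite to a carrier gene and does not encode a carrier, so 73 are carriers by name.

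RNA came from Tg(fli1a:egfp) embryos at 24 hours post fertilization, in which regulatory sequence of the endothelial gene fli1a drives a green fluorescent protein (GFP). Embryos were dissociated, and their fixed cells were sorted by fluorescence. Sorted cells with GFP are labelled as endothelial and those without it as non-endothelial. Both fractions carry the same transgene, were made in the same way and gave 2 libraries each. For each gene the deposited file gives 1 FPKM value per fraction, so no value below has a standard deviation, and the p- and q-values are those of the authors' deposited table. Whether the libraries came from separate clutches of embryos is not in the labels, so the p-values refer to these libraries and the spread behind them may be technical. Numbers of reads were not used here and the depth is unknown.

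The sort did not separate endothelium alone. Of 11 tested endothelial markers, 7 were called higher in GFP-positive cells (authors' deposited q under 0.05), as were 11 of 12 erythroid markers, and neither list had a gene called lower. Summed levels were 1562 against 25.4 FPKM for the endothelial list and 89240 against 1116 FPKM for the erythroid list. Markers of other tissues were mostly lower there: 8 of 11 tested neural, 11 of 12 skeletal muscle, 6 of 8 epidermal and 4 of 7 pigment cell markers were called lower, and none higher. In sorted bulk samples, fewer cells of a type and less RNA per cell cannot be told apart, and a level cannot be assigned to one of the cell types in a fraction.

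Solute carriers fall into families by sequence, and a family usually shares a kind of substrate. Glutamate and glycine carriers clear transmitters from synapses, heteromeric amino acid exchangers and glutamine carriers feed growing cells, and the SLC25 family links the mitochondrial matrix to the cytosol. Endothelial cells are known to use carriers to pass nutrients from blood to tissue, and red cell precursors take up much iron and amino acid for hemoglobin.

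The authors tested 73 of the 74 genes and called 11, with 7 higher and 4 lower in GFP-positive cells. That is 15.1% of those tested, beside 14.3% of all 7299 tested genes, 7.18% of them higher and 7.15% lower. Among the 6593 tested genes that also reached 10 FPKM in the larger value, 14.8% were called, 7.52% higher and 7.31% lower. At a stricter deposited q under 0.01, 2 were called higher and 1 lower, beside 8.63% of all tested genes (4.12% higher, 4.51% lower) and 9.07% of those of at least 10 FPKM (4.4% higher, 4.67% lower). Because the level threshold uses the same values as the comparison, these counts describe the genes and nothing is read from them. The levels lay within 2-fold in 51 genes, were over 2-fold higher in GFP-positive cells in 16, and over 2-fold lower in 7. Of the tested solute carrier genes 69.9% lay within 2-fold and 57.5% were larger in GFP-positive cells, beside 72.0% and 53.1% of all tested genes and 72.2% and 53.6% of those of at least 10 FPKM. Of the 23 genes past 2-fold, 12 were not called or not tested. Each log2 ratio below is the log2 of GFP-positive FPKM over GFP-negative FPKM after adding 1 FPKM to both. Its median was 0.19 over the 74 genes, 0.05 over all tested genes and 0.06 over tested genes of at least 10 FPKM. With no level threshold it was 0.00 over 336 solute carrier rows, tested or not. Of these rows, 134 were under 1 FPKM in both fractions, 46 of them at 0 in both, where the log2 ratio is 0. Group medians with no level threshold below also take in low and untested rows, so they are unlike the medians over tested genes. The added 1 FPKM understates the difference of low genes.

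**Figure D1:**
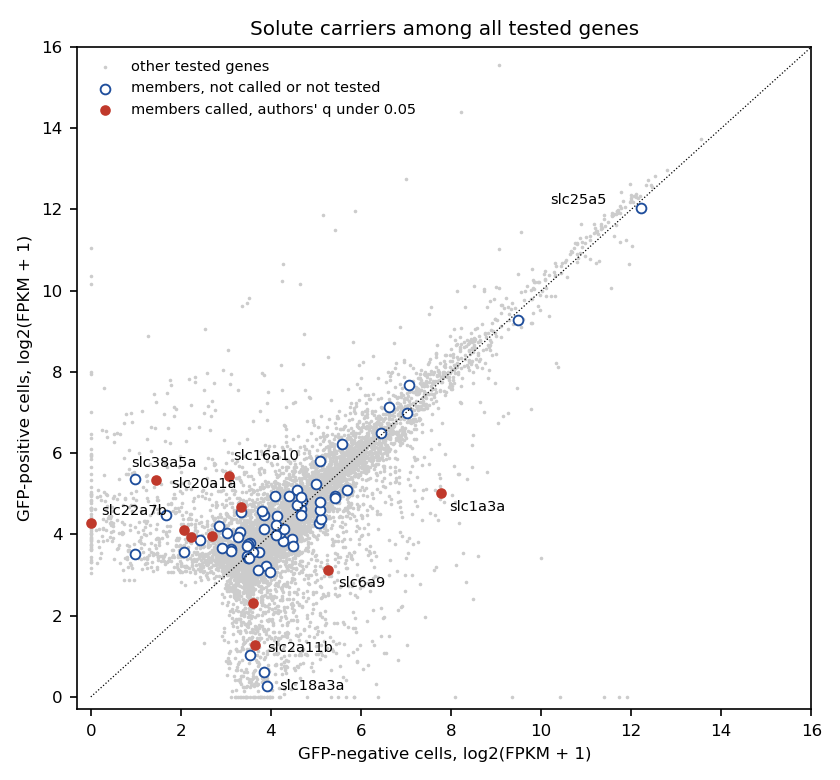
Levels of all tested genes (grey) and of 73 of the solute carrier genes (circles) in GFP-negative (x axis) and GFP-positive cells (y axis), both as log2(FPKM + 1). Filled red circles are the 11 called genes. Most open circles lie near the dotted line of equal levels, while slc38a5a (open) and slc22a7b (filled) lie well above it and slc18a3a (open) well below it.

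The threshold was reached in both fractions by 42 genes, of which none was called higher and 1 lower. It was reached in GFP-positive cells alone by 21 genes, of which 7 were called higher, and in GFP-negative cells alone by 11 genes, of which 3 were called lower. Genes of the last 2 kinds had to differ in level to be among the 74 in this way. Just inside the threshold lay slc35a1 with 10.1 FPKM in both fractions, slc35e3 with 9.74 (GFP-positive) against 10.2 FPKM (GFP-negative), the order kept below, and slc39a10 with 9.62 against 10.4 FPKM. Just outside it lay slc9a7 with 9.70 against 2.35 FPKM, slc35b3 with 8.73 against 9.53 FPKM and slc25a32a with 9.51 against 5.24 FPKM. Only 11 of the 262 rows under the threshold were tested, with larger values from 7.50 to 9.70 FPKM. Of these 1 was called, the GABA transporter gene slc6a1b, which was lower in GFP-positive cells with 0.592 against 8.36 FPKM.

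Levels spanned a wide range. In 37 genes the larger value was under 20 FPKM, and in 6 it was over 100 FPKM. The mitochondrial ADP/ATP carrier gene slc25a5 alone made up 62.7% of the summed FPKM of the 74 genes with GFP and 66.1% without it. The sum over all 74 was 6691 against 7245 FPKM, and without slc25a5 it was 2494 and 2454 FPKM. The 74 genes took 0.838% of all FPKM in GFP-positive cells and 1.09% in GFP-negative cells.

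**Figure D2:**
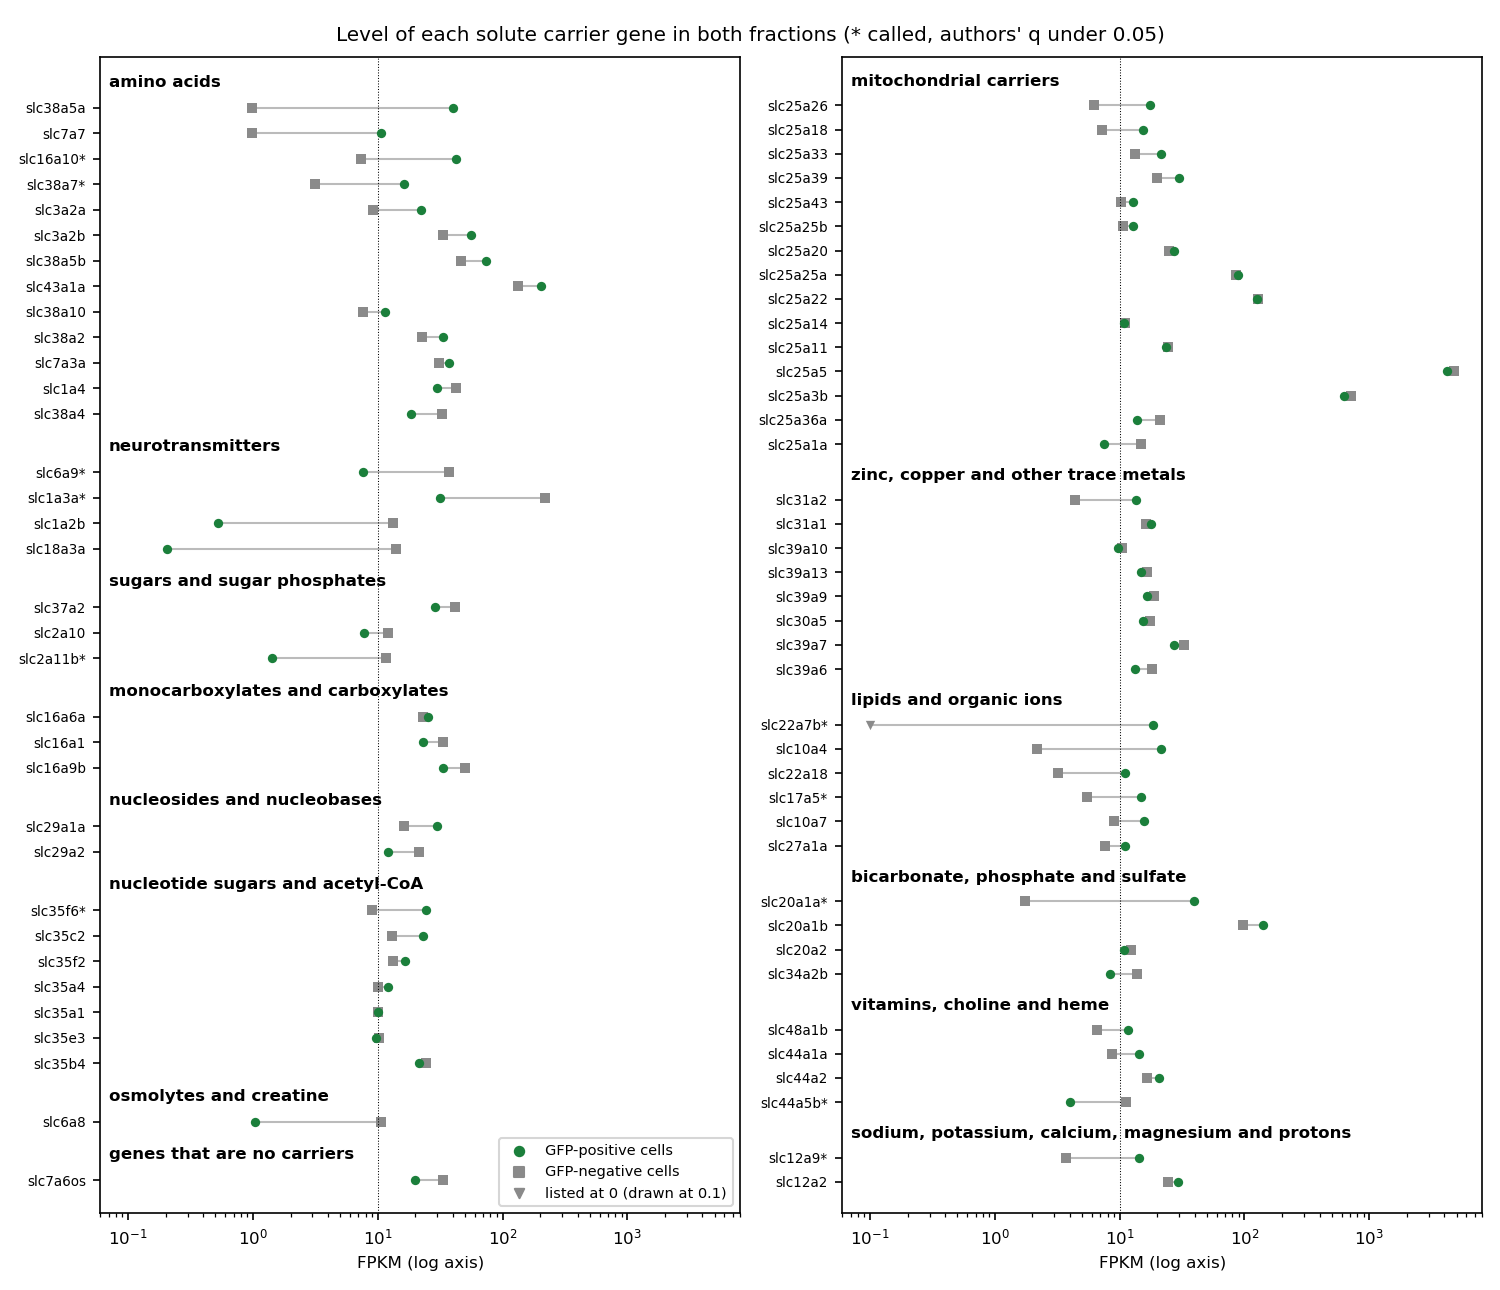
FPKM of each of 73 of the genes (log axis) in GFP-positive (circles) and GFP-negative cells (squares), grouped by substrate, with an asterisk for the 11 called genes and a dotted line at 10 FPKM. The GFP-negative value of slc22a7b is listed at 0 and is drawn at 0.1. The neurotransmitter genes all have the square to the right, and the lipid and organic ion genes all have the circle to the right. The threshold set this side for all 6 lipid and organic ion genes and for 3 of the 4 neurotransmitter genes.

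Carriers of neurotransmitters had the lowest median log2 ratio of the groups with 4 or more genes. All 4 were lower in GFP-positive cells, and their median log2 ratio was -2.99. Called lower were 2 of them, beside 7.15% of all tested genes. Of the 4, 3 reached 10 FPKM in GFP-negative cells alone, so they had to be lower with GFP, and with no level threshold the median of the group was -0.33. The glutamate transporter gene slc1a3a (ENSDARG00000026218; Zv9 chromosome 5, 8132074 to 8249687), whose mammalian counterpart clears glutamate into astrocytes and radial glia, had 31.7 FPKM in GFP-positive cells against 218 FPKM. It was 6.86-fold lower there (q = 0.000958 in the authors' deposited table). It was still above 10 FPKM in GFP-positive cells, the only one of the 4 that was. The glycine transporter gene slc6a9 (ENSDARG00000018534; chromosome 2, 33064483 to 33173149), which removes glycine at synapses, had 7.67 against 37.3 FPKM, 4.86-fold lower (q = 0.0107 in the authors' deposited table). Its Cuffdiff locus also holds ccdc24, at 1.09 FPKM or less.

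Larger ratios in this group did not pass. The vesicular acetylcholine transporter gene slc18a3a, which loads the transmitter of motor neurons into vesicles, had 0.205 against 14.0 FPKM, a 68.0-fold difference with p = 0.251 in the authors' deposited table. The glial glutamate transporter gene slc1a2b had 0.525 against 13.3 FPKM, a 25.4-fold difference with p = 0.0565 in the authors' deposited table. Both are low genes in GFP-positive cells, at under 1 FPKM. The neural marker list moved the same way: 11 of its 11 tested genes were lower with GFP, 8 of them called, with summed levels of 46.5 against 1711 FPKM and no gene at 0. The part of neural cells in these levels was not tested. Of 31 rows of this group in the table, 4 reached 10 FPKM. The creatine transporter gene slc6a8, of the same SLC6 family, had 1.05 against 10.5 FPKM and was not tested by the authors. It reached 10 FPKM in GFP-negative cells alone, so it had to be lower with GFP.

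Among amino acid carriers, 2 genes were called higher in GFP-positive cells and none lower, beside 7.18% and 7.15% of all tested genes. Of 13 genes, out of 42 rows of the group, 11 were larger there, beside 53.1% of all tested genes, and the median log2 ratio was 0.64. Of these 11, 6 reached 10 FPKM in GFP-positive cells alone, so they had to be larger there. They were slc16a10, slc38a7, slc38a5a, slc38a10, slc3a2a and slc7a7. With no level threshold the median of the group was 0.23. The aromatic amino acid transporter gene slc16a10 (ENSDARG00000020984; chromosome 20, 142892 to 168348), which lets tryptophan, tyrosine and phenylalanine cross the membrane, had 42.1 against 7.38 FPKM. It was 5.71-fold higher (q = 0.000958 in the authors' deposited table). The glutamine transporter gene slc38a7 (ENSDARG00000012002; chromosome 7, 53250920 to 53270065), whose human counterpart exports glutamine from lysosomes, had 16.1 against 3.17 FPKM, 5.09-fold higher (q = 0.0120 in the authors' deposited table).

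The largest amino acid difference was not called. The gene slc38a5a, a sodium-coupled carrier of glutamine and other neutral amino acids, had 40.1 against 0.975 FPKM, a 41.2-fold difference (q = 0.0589 in the authors' deposited table). Its namesake slc38a5b had 73.3 against 46.6 FPKM, so the lower-expressed of the pair showed the larger ratio. Other glutamine-family genes lay on both sides, with slc38a2 at 33.1 against 22.7 FPKM, slc38a10 at 11.5 against 7.61 FPKM and slc38a4 at 18.4 against 32.7 FPKM. None of these was called. The neighbours slc38a4 and slc38a2 lie 33461 bases apart on chromosome 4 and had log2 ratios of -0.80 and 0.52.

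Heteromeric exchangers consist of a heavy chain, which carries the complex to the cell surface, and a light chain, which transports. Both heavy-chain genes were larger with GFP than without, slc3a2a with 22.4 against 9.11 FPKM and slc3a2b with 55.4 against 33.3 FPKM. Neither was called, with q-values of 0.0754 and 0.275 in the authors' deposited table. The light-chain gene slc7a7, which in zebrafish is known from macrophages and microglia, had 10.5 against 0.976 FPKM, a 10.8-fold difference (q = 0.0828 in the authors' deposited table). It was the only light chain among the 74 genes. Both slc7a7 and slc3a2a reached 10 FPKM in GFP-positive cells alone, so they had to be larger there. Myeloid markers, in a list added after the values were seen, were larger in GFP-positive cells in 11 of 11 tested genes and called in 4, with summed levels of 680.2 against 7.84 FPKM. In GFP-negative cells mpeg1, marco, cxcr3.2, both lcp1 rows and 1 of 2 ptpn6 rows were listed at 0 (the other ptpn6 row had 0.751 FPKM), and the part of myeloid cells in the slc7a7 level was not tested.

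The remaining amino acid genes lay within 2-fold. The large neutral amino acid carrier gene slc43a1a was the highest of the 74 genes outside the mitochondrial group in GFP-positive cells, with 203 against 132 FPKM. The cationic amino acid carrier gene slc7a3a had 37.1 against 31.0 FPKM and the small neutral amino acid exchanger gene slc1a4 had 29.7 against 42.0 FPKM. None of the 3 was called, with q-values from 0.359 for slc43a1a to 0.790 for slc7a3a in the authors' deposited table. The non-carrier slc7a6os had 19.8 against 33.5 FPKM and was not called.

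Carriers of lipids, bile acids and organic ions were larger with GFP in 6 of 6 genes, with a median log2 ratio of 1.39. Of the 6, 2 were called higher, beside 7.18% of all tested genes. All 6 reached 10 FPKM in GFP-positive cells alone, so each had to be larger there. The median of the group was 0.00 with no level threshold, 1.002 at 5 FPKM and 2.82 at 20 FPKM. The organic anion transporter gene slc22a7b (ENSDARG00000056643; chromosome 17, 21832871 to 21840683) had 18.5 FPKM against a listed 0 in GFP-negative cells. It was called (q = 0.000958 in the authors' deposited table), and no fold is given because a listed 0 can be a failed estimate. The lysosomal sialic acid exporter gene slc17a5 (ENSDARG00000055190; chromosome 13, 27522562 to 27538404) had 14.7 against 5.50 FPKM, 2.67-fold higher (q = 0.0452 in the authors' deposited table).

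In the other 4 genes of this group the difference was not called. The bile acid family gene slc10a4, whose mammalian counterpart sits on synaptic vesicles, had 21.5 against 2.19 FPKM (q = 0.0549 in the authors' deposited table). It shares its Cuffdiff locus with LRG1, which had 1.96 FPKM against a listed 0. The family's other gene, slc10a7, had 15.6 against 9.02 FPKM. The organic cation family gene slc22a18 had 10.9 against 3.21 FPKM (q = 0.104 in the authors' deposited table), and the fatty acid transport gene slc27a1a had 11.02 against 7.60 FPKM.

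Phosphate carriers were divided by gene. The sodium-phosphate cotransporter gene slc20a1a (ENSDARG00000020114; chromosome 8, 31905156 to 31923057) had 39.6 against 1.74 FPKM, 22.8-fold higher in GFP-positive cells (q = 0.0243 in the authors' deposited table). Its namesake slc20a1b was the higher of the pair in both fractions, with 141 against 97.0 FPKM, and was not called (q = 0.517 in the authors' deposited table). The related slc20a2 had 10.8 against 12.4 FPKM and the epithelial phosphate carrier gene slc34a2b had 8.39 against 13.9 FPKM, neither of them called. In GFP-positive cells alone 10 FPKM was reached by slc20a1a, and in GFP-negative cells alone by slc34a2b, so the directions of both were set by the threshold. No bicarbonate or sulfate carrier was among the 74 genes, slc4a1a being set aside. The 4 phosphate genes had a median log2 ratio of 0.17, which lies between log2 ratios of -0.66 for slc34a2b and 3.89 for slc20a1a. With no level threshold the median was 0.00, taken over all 28 bicarbonate, phosphate and sulfate carrier rows without slc4a1a.

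Carriers of inorganic cations include 2 genes of the cation-chloride cotransporter family, and both were larger with GFP. Of the 2, slc12a9 reached 10 FPKM in GFP-positive cells alone, so it had to be larger there. The gene slc12a9 (ENSDARG00000060366; chromosome 5, 39801263 to 39848919) was called, with 14.4 against 3.69 FPKM, 3.91-fold higher (q = 0.0279 in the authors' deposited table). Its locus also holds hsd20b2, at 0.570 FPKM or less. The sodium-potassium-chloride cotransporter gene slc12a2 had 29.2 against 24.4 FPKM and a name shared with another row.

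Sugar carriers were lower with GFP in 3 of 3 genes, from 29 rows. Of the 3, 2 (slc2a11b and slc2a10) reached 10 FPKM in GFP-negative cells alone, so they had to be lower with GFP. The facilitative sugar transporter gene slc2a11b (ENSDARG00000063288; chromosome 5, 10922205 to 10953785), known in medaka for its part in pigment cell development, had 1.41 against 11.6 FPKM. It was 8.18-fold lower (q = 0.0420 in the authors' deposited table). Pigment cell markers were lower in 7 of 7 tested genes, 4 of them called, with summed levels of 43.1 against 347 FPKM and pax7a listed at 0 in GFP-positive cells. The part of pigment cells in the slc2a11b level was not tested. The sugar phosphate exchanger gene slc37a2 had 28.9 against 41.8 FPKM and the sugar transporter family gene slc2a10 had 7.79 against 12.1 FPKM, neither of them called. The counterparts of the main mammalian glucose transporter of brain vessels were under the threshold and not tested, with 0.438 against 1.63 FPKM for slc2a1a and 2.22 against 3.76 FPKM for slc2a1b. Of the slc2a3 rows, also under the threshold and not tested, slc2a3a had 0.125 against 1.89 FPKM and slc2a3b had 6.83 against 1.15 FPKM.

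Carriers of monocarboxylates such as lactate lay within 2-fold in 3 of 3 genes. The lactate and pyruvate carrier gene slc16a1 had 23.2 against 33.1 FPKM, slc16a9b had 33.3 against 50.2 FPKM, and slc16a6a, a gene for export of the ketone body beta-hydroxybutyrate from zebrafish liver, had 25.4 against 22.9 FPKM. None was called. The gene for basigin (bsg), the protein that brings monocarboxylate carriers to the cell surface, had 167 against 170.0 FPKM and was not called either.

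Carriers of choline, heme and vitamins gave 4 genes of 17 rows. The choline transporter-like gene slc44a5b (ENSDARG00000057419; chromosome 8, 18358510 to 18438941) was called lower, with 3.99 against 11.2 FPKM, 2.80-fold (q = 0.0338 in the authors' deposited table). The 2 other choline transporter-like genes went the other way and were not called, slc44a1a with 14.2 against 8.65 FPKM and slc44a2 with 20.8 against 16.6 FPKM. The heme transporter gene slc48a1b, whose product moves heme out of endosomes and lysosomes, had 11.7 against 6.53 FPKM and was not called. In GFP-positive cells alone 10 FPKM was reached by slc44a1a and slc48a1b, and in GFP-negative cells alone by slc44a5b. The directions of these genes were thus set by the threshold. The median log2 ratio of the 4 genes was 0.48, and 0.00 for the group with no level threshold.

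Nucleoside and nucleotide sugar carriers were represented by 2 and 7 genes. The equilibrative nucleoside transporter genes had opposite directions, slc29a1a with 29.9 against 16.1 FPKM (q = 0.139 in the authors' deposited table) and slc29a2 with 12.0 against 21.5 FPKM. The locus of slc29a2 holds 9 genes. Nucleotide sugar carriers bring activated sugars into the Golgi apparatus for glycosylation. Of the 7 genes of this family 1 was called, beside 14.3% of all tested genes. It was slc35f6 (ENSDARG00000016745; chromosome 20, 25933805 to 25940250), a family member that is not known as a nucleotide sugar carrier, with 24.4 against 9.02 FPKM, 2.70-fold higher (q = 0.0368 in the authors' deposited table). As slc35f6 reached 10 FPKM in GFP-positive cells alone, and slc35e3 in GFP-negative cells alone, the directions of both were set by the threshold. The median log2 ratio of the 7 genes was 0.24, and -0.090 for the group with no level threshold. The gene slc35c2, linked in mammals to fucosylation of Notch, had 23.0 against 12.98 FPKM and was not called. The other 5 genes lay within 1.25-fold: slc35b4 (21.4 against 24.4 FPKM), slc35f2 (16.6 against 13.3 FPKM), slc35a4 (12.1 against 10.04 FPKM), and slc35a1 and slc35e3 as given above.

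Trace metal carriers were close between the fractions in 7 of 8 genes. None of the 8 was called, beside 14.3% of all tested genes. The median log2 ratio was -0.15, and 0.00 with no level threshold. The 6 zinc carriers (slc30a5, slc39a6, slc39a7, slc39a9, slc39a10 and slc39a13) were all lower with GFP, by 1.09-fold to 1.36-fold, with p-values from 0.314 to 0.773 in the authors' deposited table. The highest of them was slc39a7, which releases zinc from the endoplasmic reticulum, with 27.0 against 33.0 FPKM. The copper importer gene slc31a1 had 17.8 against 16.4 FPKM. The second copper gene slc31a2, a relative of it found on intracellular membranes, had 13.6 against 4.36 FPKM, a 3.11-fold difference with p = 0.0511 in the authors' deposited table. Because slc31a2 reached 10 FPKM in GFP-positive cells alone, and the zinc carrier gene slc39a10 in GFP-negative cells alone, the directions of both were set by the threshold.

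**Figure D3:**
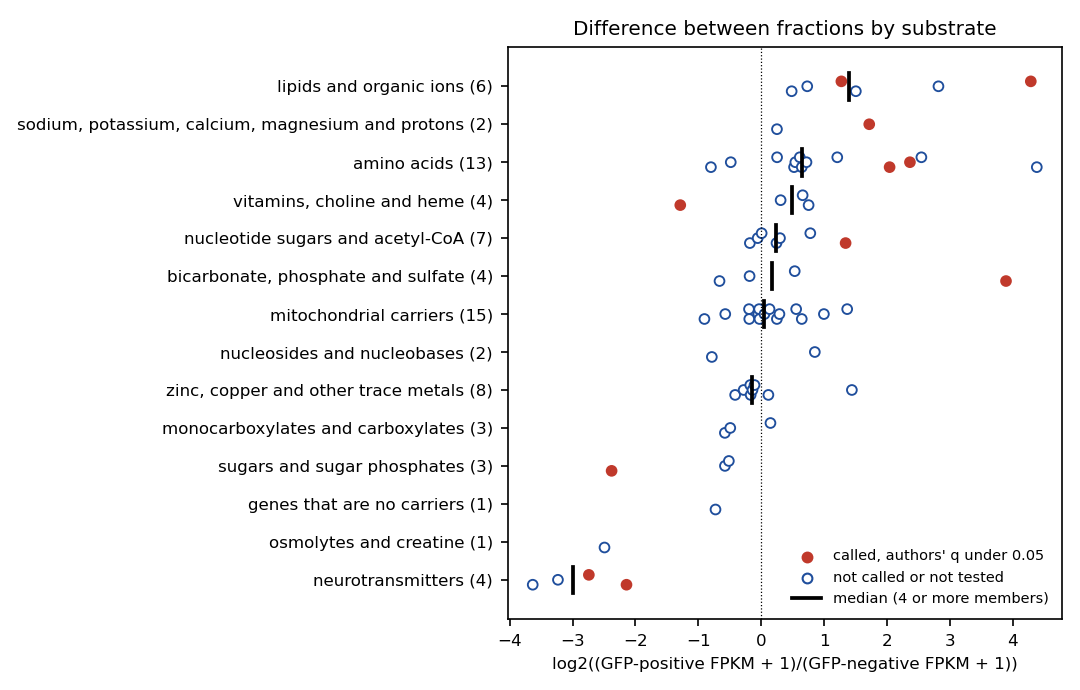
The log2 ratio of GFP-positive over GFP-negative FPKM (1 FPKM added to both; x axis) of each gene by substrate, with the number of genes drawn in parentheses, filled circles for called genes and a bar at the median of groups of 4 or more. The median is 1.39 for lipids and organic ions, 0.64 for amino acids, 0.05 for mitochondrial carriers and -2.99 for neurotransmitters, among genes that had to reach 10 FPKM in 1 fraction.

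Mitochondrial carriers were the largest group and had no called gene, beside 14.3% called of all tested genes. Of 15 genes, out of 46 rows, 8 were larger with GFP and 7 without it, 13 lay within 2-fold, and the median log2 ratio was 0.05. The threshold was reached in GFP-positive cells alone by slc25a26 and slc25a18, and in GFP-negative cells alone by slc25a1a. It thus set the directions of these genes. Before adjustment, 1 of the 15 had a p under 0.05 in the authors' deposited table. It was the S-adenosylmethionine carrier gene slc25a26, with 17.5 against 6.18 FPKM and a q of 0.0686. The ADP/ATP carrier gene slc25a5 (ENSDARG00000092553; chromosome 14, 33738537 to 33750637), which exchanges ATP made in the matrix for cytosolic ADP, had 4197 against 4792 FPKM. By level it ranked 28 among all rows of the table in GFP-positive cells and 8 in GFP-negative cells. The phosphate carrier gene slc25a3b, which supplies phosphate for ATP synthesis, had 624 against 715 FPKM, and slc25a22, named for a glutamate carrier, had 126 against 128 FPKM.

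The other mitochondrial genes were lower in level, and none was called. The ATP-magnesium/phosphate carrier genes slc25a25a and slc25a25b had 89.3 against 86.1 FPKM and 12.8 against 10.6 FPKM. The oxoglutarate carrier gene slc25a11 had 23.6 against 24.5 FPKM, the uncoupling protein relative slc25a14 10.8 against 11.1 FPKM, and the acylcarnitine carrier gene slc25a20 27.4 against 24.9 FPKM, in a locus of 16 genes. None of these passed, with p-values from 0.526 for slc25a25b to 0.931 for slc25a14 in the authors' deposited table. The citrate carrier gene slc25a1a had the lowest ratio, with 7.42 against 14.8 FPKM. The pyrimidine nucleotide carrier genes lay on opposite sides, slc25a33 with 21.3 against 13.3 FPKM and slc25a36a with 13.8 against 21.0 FPKM. The gene slc25a39, needed for heme synthesis in zebrafish, had 29.9 against 20.01 FPKM, and the glutamate carrier gene slc25a18 had 15.3 against 7.16 FPKM. The Cuffdiff locus of slc25a18 also holds CECR2 and si:ch211-266k8.3. The latter had 15.3 against 7.14 FPKM, close to slc25a18, so reads could be divided between them. The uncharacterised carrier gene slc25a43 had 12.7 against 10.2 FPKM. It overlaps slc25a5 in 1 Cuffdiff locus, so reads could be divided between them. Without slc25a5 and slc25a3b, the mitochondrial genes summed to 407 against 378 FPKM.

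Zebrafish keep many gene pairs from an ancient genome duplication, which carry the suffixes a and b. Of the 74 genes, those with such a suffix belonged to 22 pairs of names, and both rows were in the table for 19. In 4 pairs both rows were among the 74 (slc3a2, slc20a1, slc38a5 and slc25a25), and in all 4 pairs both rows were larger with GFP than without. Of these rows, slc3a2a, slc20a1a and slc38a5a reached 10 FPKM in GFP-positive cells alone, so they had to be larger there. Among all rows of the 4 pairs, only slc20a1a was called. In the other 15 pairs only 1 row reached 10 FPKM and the second was not tested. For the glial glutamate carrier, slc1a3b had 0.0834 against 1.04 FPKM beside 31.7 against 218 FPKM for slc1a3a. For the large neutral amino acid carrier, slc43a1b had 0.929 against 1.67 FPKM beside 203 against 132 FPKM for slc43a1a. For the organic anion carrier the pair was divided, with slc22a7a at 1.75 against 6.77 FPKM and slc22a7b at 18.5 FPKM against a listed 0. Rows slc1a2a, slc2a11a, slc34a2a and slc44a5a were listed at 0 in both fractions. Of the other 15 pairs, 6 had their rows larger in different fractions, none of them a pair with both rows tested (slc16a6, slc16a9, slc22a7, slc27a1, slc43a1 and slc44a1). Reads shared between near-identical copies may be divided unevenly, so the split within a pair is uncertain.

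**Figure D4:**
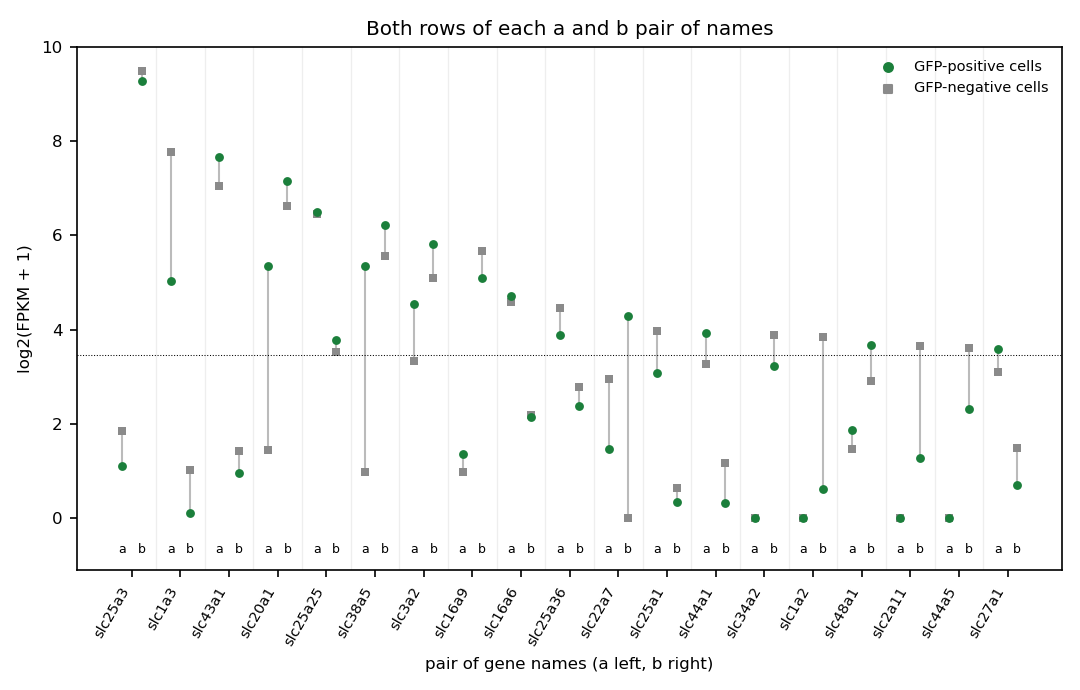
log2(FPKM + 1) of both rows of the 19 pairs of names, a on the left and b on the right, in GFP-positive (circles) and GFP-negative cells (squares), with a dotted line at 10 FPKM. In 15 pairs 1 row lies wholly under the line, and in slc20a1 and slc38a5 the a row has the wider gap between the fractions.

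Genes listed as carriers of numbered families under other gene names, and proteins that drive or place carriers, were looked at beside them. Of 12 tested genes listed so, 3 were called higher in GFP-positive cells and none lower, beside 7.18% and 7.15% of all tested genes. The median log2 ratio of the 12 was 0.51, beside 0.05 over all tested genes. Called higher were the sphingosine-1-phosphate exporter gene spns2 (109 against 11.2 FPKM), the ammonium channel gene of red cells rhag (37.4 against 3.12 FPKM) and rhd (30.5 FPKM, listed at 0 in GFP-negative cells). The pyruvate carrier genes mpc1 and mpc2 were not called, with 46.5 against 70.6 FPKM and 66.9 against 84.8 FPKM. Of 15 tested partner and ion pump genes, 1 was called higher and 2 lower, beside the same 7.18% and 7.15% of all tested genes. Of the 15, 4 were larger in GFP-positive cells, and the median log2 ratio of the 15 was -0.50. The sodium pump, whose gradient drives most of the sodium-coupled carriers above, had 1 beta subunit gene called in each direction. These were atp1b1a with 175 against 76.4 FPKM and atp1b1b with 2.63 against 69.4 FPKM. The other tested beta subunit genes, atp1b2a, atp1b3a, atp1b3b and atp1b4, were lower with GFP and not called. The alpha subunit gene atp1a1b was the other called lower, with 1.16 against 33.8 FPKM. In contrast, atp1a1a.1 had 177 against 117 FPKM and was not called.

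By position, the 74 genes lay on 21 chromosomes and 1 unplaced scaffold of Zv9, with at most 8 on 1 chromosome (5 and 8). Besides slc38a4 and slc38a2, and slc25a5 and slc25a43, only slc25a3b and slc35b4 lay within 100000 bases of each other, 26095 bases apart on chromosome 25. A Cuffdiff locus was shared with another gene by 15 of the 74, of which slc6a9 and slc12a9 were called.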

How the data were processed

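The deposited file compares GFP-positive with GFP-negative cells gene by gene. TopHat2 2.0.9, Cuffdiff 2.1.1 and Zv9 are named in the submitters' processing notes; settings and annotation are not given in the sources used here. Per the file headers it holds 1 FPKM value per gene and fraction, taken as the authors' value over both libraries of that fraction, which the headers do not state. As the authors deposited them, it also holds a log2 ratio, a score (the Cuffdiff test statistic, not used), a p-value and a q-value. The authors' log2 ratio puts GFP-negative cells in the numerator, and it was turned here; it differed from the FPKM columns by at most 1.33e-05. Recomputing the q-value by Benjamini-Hochberg (BH) over the 7299 tested genes differed from the deposited one by at most 5.26e-07. Cuffdiff left 24304 rows untested and marked 113 as LOWDATA. A gene was called at a deposited q under 0.05. The median log2 FPKM ratio of 11895 genes with at least 1 FPKM on both sides was 0.01.

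Each gene went to a substrate group by name pattern; slc7a6os was moved out of the amino acid group after the values were seen. The rule for named genes lets every one of the 74 be named; 73 are, and 1 gene is counted in the totals but not reported here or drawn. The genes, groups and lists were chosen with earlier results of these data known. Coordinates are the Cuffdiff locus as the file gives it, with no statement whether starts count from 0 or 1. A table of gene names matched 65 of the 74 IDs, 49 with the same spelling ignoring case; slc25a22 is slc25a55a and slc22a7b is slc22a7b.1 there. Python 3.11.15 with pandas 2.3.3 was used, and the code was tested on simulated data. The alternatives were a q of 0.01, a log2 ratio of at least 1, other level thresholds, names in any case, rows alone in their locus, BH over genes of at least 10 FPKM, other pseudocounts, centring, and leaving out genes at 0.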

Additional observations from a re-analysis of the deposited data

How the results depend on the processing

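No paired analysis was possible because the deposited file holds 1 value per fraction, and for the same reason no library could be left out. At a q of 0.01, 2 genes were called higher (slc16a10 and slc22a7b) and 1 lower (slc1a3a). With larger values of at least 20 FPKM the counts were 3 and 2, and with a mean of both fractions of at least 10 FPKM they were 4 and 2. The other alternatives for the counts stayed within 1.5 times of 7 and 4. Of the 74 log2 ratios, 1 changed sign under centring (slc35a1, not called) and none with pseudocounts of 0.1 or 0.01. A group median was taken to have moved when it shifted by over 0.1. With no level threshold it takes in low rows and rows that were not tested. It was then 0.00 for all members, bicarbonate, phosphate and sulfate carriers, lipids and organic ions, vitamins and choline, and trace metals. It was 0.23 for amino acids, -0.090 for nucleotide sugars and -0.33 for neurotransmitters. At 5 FPKM it was 0.30 for bicarbonate, phosphate and sulfate carriers, 1.002 for lipids and organic ions, -2.20 for neurotransmitters and 0.0060 for nucleotide sugars. At 20 FPKM it was 2.21 for phosphate carriers, 2.82 for lipids and organic ions, -2.44 for neurotransmitters, 0.78 for nucleotide sugars, 0.31 for vitamins and choline and -0.28 for trace metals. With pseudocounts of 0.1 and 0.01 it was 1.57 and 1.59 for lipids and organic ions and -3.60 and -3.71 for neurotransmitters. With the mean of both fractions it was 1.27 for lipids and organic ions and -2.44 for neurotransmitters. With rows alone in name and locus, also where loci under 1000 bases were left out (an alternative chosen after seeing the data), it was 1.27, -3.19 and, for vitamins and choline, 0.31. With genes at 0 left out it was 1.27 for lipids and organic ions. The cause of these shifts was not tested. Depth is unknown, so no detection limit is given, and a level under 1 FPKM, as for slc18a3a, slc1a2b, slc7a7 and slc38a5a in 1 fraction, makes the fold imprecise.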

Other observations

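Solute carrier rows written in upper case in the table fall outside the naming rule, and 9 of 99 such rows reached 10 FPKM. Of 8 tested, 2 were called higher in GFP-positive cells and none lower, beside 7.18% and 7.15% of all tested genes. The proline and imino acid carrier row SLC6A20 had 12.7 FPKM with GFP against 1.26 FPKM without it (q = 0.0111 in the authors' deposited table). The scaffold protein row SLC9A3R1 (2 of 2), which binds sodium-proton exchangers and is no carrier, had 17.9 against 1.49 FPKM (q = 0.00177 in the authors' deposited table). A second row for the equilibrative nucleoside transporter, SLC29A1 (2 of 2), had 16.5 against 0.213 FPKM and was not called (q = 0.106 in the authors' deposited table). The light chain row SLC7A5, for the main partner of the heavy chains above, had 11.6 against 9.45 FPKM and was not called. All the upper-case rows named here reached 10 FPKM in GFP-positive cells alone, so they had to be larger there.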
